A study of Mus musculus with 16 samples.

Results

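The genes described here are the antiviral genes that type I interferon induces, followed in skin wounds of diabetic mice treated with estrogen. The list held 39 genes chosen by name, and each was read through its single probe with the highest mean level. Probes were named for 36 of the 39 genes, out of 20832 genes named on the array. No probe was named for Mx1, Mx2 or Oas1b, which RefSeq lists as transcribed pseudogenes in the reference mouse strain. The WT group were female C57BL/6J mice aged 10 to 12 weeks, with wounds left untreated. The 3 diabetic groups were female db/db mice aged 10 weeks of the strain C57BLKS/J Iar-+Lepr db/+Lepr db, homozygous for Lepr db, a mutated leptin receptor. The db/db group was untreated, the db/db + estrogen group had estradiol benzoate in sesame oil put on the wounds each day at 0.75 μg/g/day, and the db/db + vehicle group had the oil alone. The WT and db/db mice differed in strain as well as in the leptin receptor, so strain and diabetes cannot be told apart in any comparison with WT. There were 16 arrays, 2 for each of the 4 groups at each of 2 times after wounding, labelled day 7 and day 14. RNA came from homogenate of the whole wound with the intact skin around it.

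Type I interferons are secreted proteins that signal through one receptor, the pair Ifnar1 and Ifnar2. The receptor activates transcription factors, among them Stat2, which joins Irf9 in a complex that binds a short DNA element, the interferon-stimulated response element, in front of a large set of genes. Their products sense foreign nucleic acid, cut or sequester viral RNA, block translation, modify proteins with the ubiquitin-like protein Isg15, or call in lymphocytes. In skin, plasmacytoid dendritic cells, which enter wounds early, are a known source of type I interferon.

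The response element is shown here because it is the sequence feature that these genes are known for, and the choice of genes did not use it. Its core was searched as GAAANNGAAA on both strands, overlapping matches included, in the RefSeq promoters of build GRCm38.p6, from 250 bases before the start of the gene to 50 bases after it. Of the 36 genes with a probe and the 3 without, 28 had a promoter sequence, and the core stood in 14 of them, or 50%. It stood in 1079 of all 27025 genes with a promoter, or 3.99%. The stretches below come from 6 of these genes, with all core matches before the start in capitals and the strand of the gene shown 5′ to 3′. Cores that read TTTCNNTTTC lie on the other strand.
Isg15 (chr4:156200855-156200916, minus strand): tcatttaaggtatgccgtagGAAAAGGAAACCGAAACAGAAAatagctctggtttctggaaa
Ifit1 (chr19:34640765-34640833, plus strand): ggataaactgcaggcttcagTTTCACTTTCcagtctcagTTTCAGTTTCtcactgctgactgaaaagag
Ifit3 (chr19:34583353-34583436, plus strand): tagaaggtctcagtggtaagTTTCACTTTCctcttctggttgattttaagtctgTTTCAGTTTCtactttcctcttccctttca
Rsad2 (chr12:26456543-26456592, minus strand): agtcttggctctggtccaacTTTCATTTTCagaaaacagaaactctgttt
Cxcl10 (chr5:92349073-92349122, minus strand): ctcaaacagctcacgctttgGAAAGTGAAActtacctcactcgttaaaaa
Stat2 (chr10:128270256-128270305, plus strand): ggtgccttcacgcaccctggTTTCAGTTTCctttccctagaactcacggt
Isg15 held 3 overlapping cores, which ended 57 bases before the start, and Ifit1 and Ifit3 held 2 each. A match is a description of the letters and not a shown binding site, and a promoter with no match says only that these letters were not in this window.

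A log2 level below is the log2 of the background-subtracted signal of a probe, relative to the 75th percentile of its array, which is 0. Levels of different probes are not compared with each other, and a level summed over a list of markers mostly follows the probes with the highest signal, which are named beside it. The 75th percentile ran from 1091 to 2548 signal units over the arrays, no spot was saturated, and 35 of the 36 genes were well above background on all 16 arrays. The exception was Oas1g, which was well above background on 10. A gene was called where limma's two-sided unadjusted p was below 0.05 and the fold change above 2, as in the methods of the study, and the number that also had an adjusted p below 0.05 is given beside. At 2 arrays against 2, the smallest p of a two-sided exact permutation test is 0.333. Nothing in the labels says whether the 2 arrays of a group came from separate animals, so the p-values measure the spread between these arrays, which may be technical. The labels of the days are uncertain, because fold changes in the study's tables matched the arrays of the other labelled day, and "day 7" and "day 14" below are only the labels of the arrays. The day 7 arrays filled slides 1 and 2, with replicate 1 of every group on one and replicate 2 on the other. Of the day 14 arrays, slide 3 held the db/db pair and replicate 1 of the treated groups, and slide 4 held the WT pair and replicate 2 of the treated groups. In whole-wound RNA, fewer cells of a type and less RNA per cell cannot be told apart.

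Of the 36 genes, 28 at day 7 and 33 at day 14 had their lowest group mean in untreated db/db wounds, against 29.3% and 34.9% of all probes well above background in a group of that day. The highest group mean was that with estrogen for 30 genes at each day, against 23.1% and 15% of probes. WT was the highest group for 5 genes at day 7 and 6 at day 14. At day 7 the median log2 level of the 36 genes was 0.56 and 0.16 on the WT arrays, −0.80 and −0.74 on the db/db arrays, −0.17 and 0.21 with vehicle, and 0.78 and 0.72 with estrogen. Both db/db arrays lay below all 6 other arrays, and both estrogen arrays above them. At day 14 the medians were 0.27 and 0.48 for WT, −0.39 and −0.50 for db/db, 0.33 and 0.13 with vehicle, and 0.45 and 1.12 with estrogen. The db/db arrays were again the lowest, while replicate 1 of the estrogen group lay between the 2 WT arrays and replicate 2 above every other array.

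**Figure D1:**
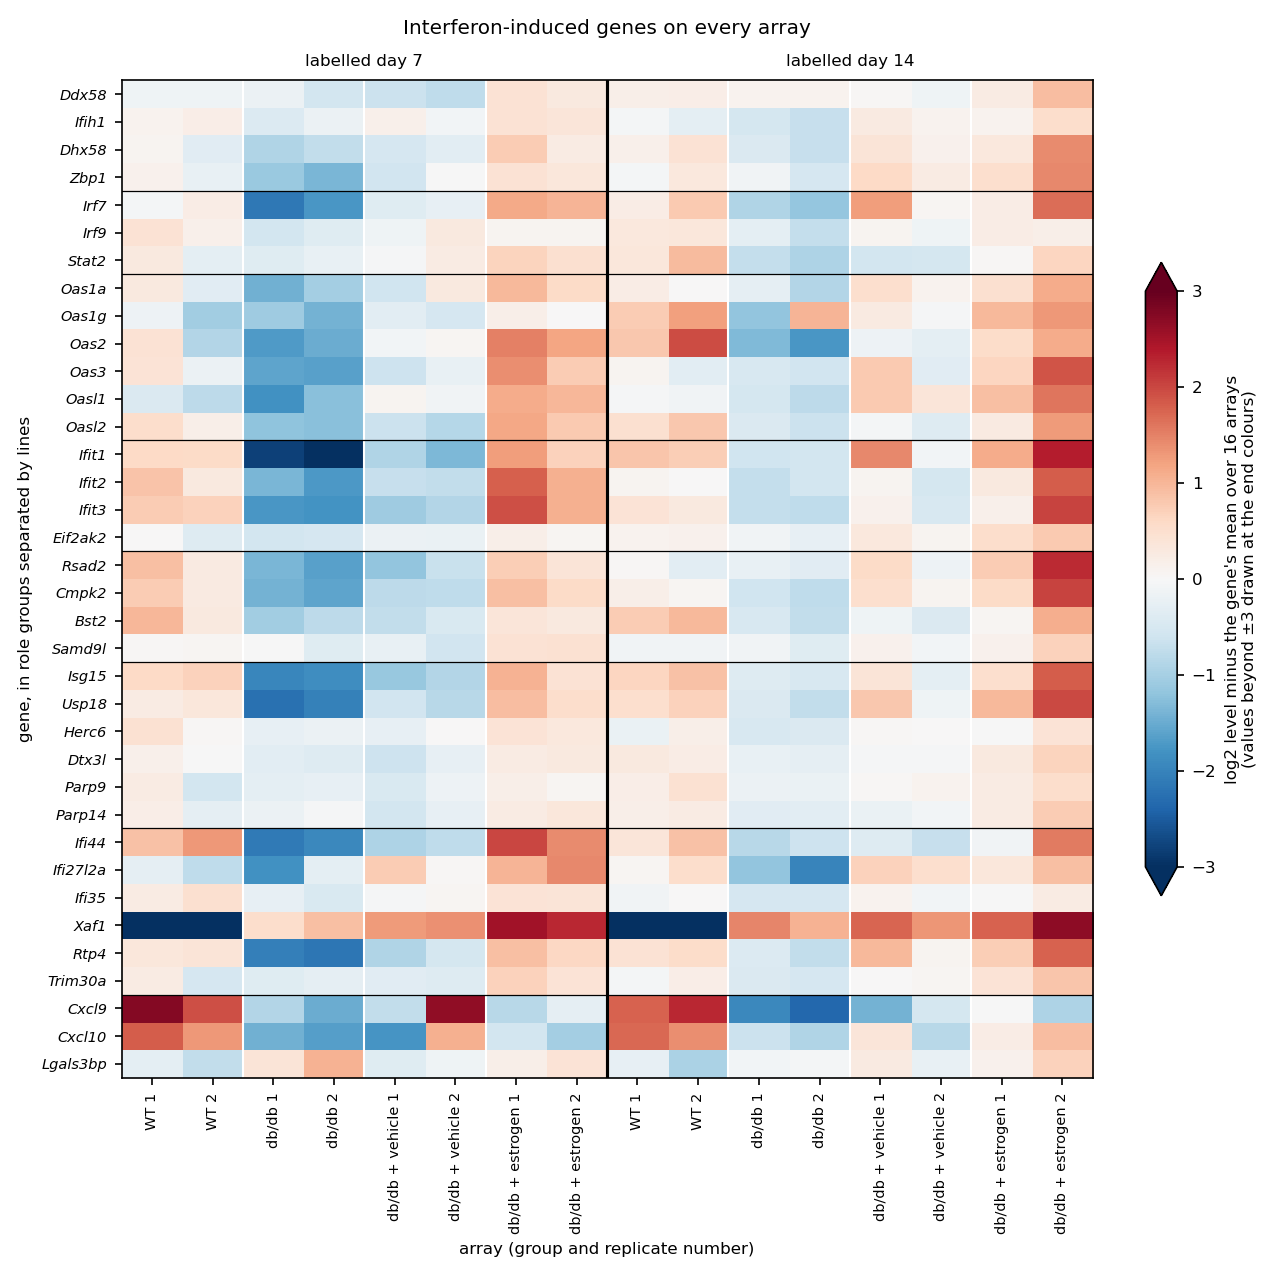
Log2 level of each of the 36 genes (rows, in role groups) on each of the 16 arrays (columns), relative to the gene's mean over the 16 arrays. Red is above and blue below that mean, with values beyond ±3 at the end colours; the untreated db/db columns are mostly blue and the estrogen columns mostly red. In db/db, Xaf1, Lgals3bp at day 7, and Ddx58 and replicate 2 of Oas1g at day 14 lie above the mean, and with estrogen Cxcl9, Cxcl10 at day 7 and, slightly, Ifi44, Herc6 and Ifi35 on replicate 1 of day 14 lie below it.

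**Figure D2:**
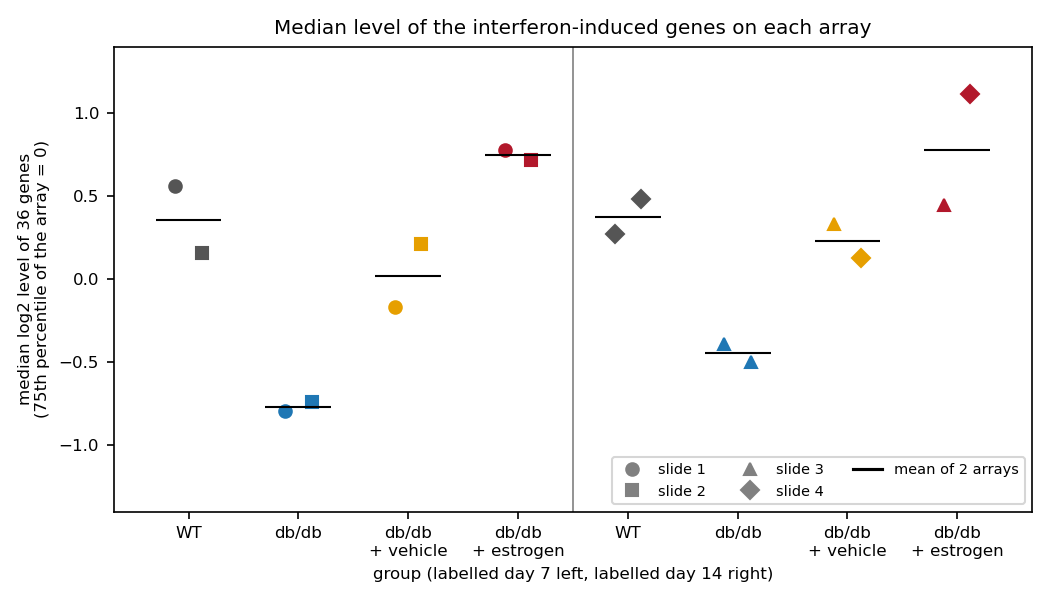
Median log2 level of the 36 genes on each array (points, shaped by slide) with the mean of the 2 arrays of a group (lines). The db/db arrays are the lowest at both days, and the 2 estrogen day 14 arrays lie apart, at 0.45 on slide 3 and 1.12 on slide 4.

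Against WT, the question was how far each db/db group stood from a normally healing wound. At day 7, 18 of the 36 genes were called lower in untreated db/db wounds, against 8.42% of all probes tested, and 2 were called higher, against 5.67%. The adjusted p was below 0.05 for 18 of these 20 genes, against 9.07% of all probes. The median log2 fold change was −1.05, beside −0.05 over all probes tested, and 29 genes were lower with no overlap between arrays, against 31.9% of probes. The 29 include Oas1g, which was not tested here, being well above background on no array of either group. Slide 1 gave a median of −1.47 and slide 2 gave −0.66. With vehicle, 11 genes were called lower than WT and 1 higher, against 6.38% and 3.91% of probes, and 4 of these calls held after adjustment, against 5.57% of probes. Without WT replicate 1, 7 genes in all were called in that comparison. With estrogen, 4 genes were called higher than WT, against 3.64%, and 2 lower, against 4.49%, with 2 calls after adjustment against 3.65%. With WT replicate 1 left out, the lower calls were lost and more genes were called higher. The median was −0.38 with vehicle and 0.43 with estrogen. On slides 1 and 2 the estrogen medians were 0.44 and 0.43, with 29 and 30 of 36 genes higher than WT. Those with vehicle were −0.71 and −0.15, with 32 and 20 genes lower. The 30 genes not called in the estrogen group are not shown to equal WT, since a call needed a 2-fold change.

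At day 14, 13 genes were called lower in untreated db/db wounds, against 15.6% of probes, and 1 higher, against 2.35%. After adjustment 9 calls were left, against 13.6% of probes, and 32 genes were lower with no overlap, against 40.3%. The median was −0.74, beside −0.12 over all probes. WT and untreated db/db arrays shared no slide here. With slide as a fixed block, which compares them through the treated groups, 5 genes were called and the median was −0.44, and without WT replicate 2, 9 were called. With vehicle, 6 genes were called lower than WT, against 10.8% of probes, and 1 higher, against 2.54%, with 4 after adjustment against 8.81%. Their median of −0.07 lay near that of all probes, −0.09, and 3 genes were called without WT replicate 2. With estrogen, 6 genes were called higher than WT, against 2.51% of probes, and 1 lower, against 10.8%, and 3 calls held after adjustment, against 8.37%. The number of genes called in either direction changed greatly with a single estrogen array left out. The median, 0.47 with all arrays, ran from 0.042 to 0.77 with an array left out, the highest being without estrogen replicate 1. Xaf1, whose 2 probes disagree, was among the genes called higher in all 6 comparisons with WT.

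**Figure D3:**
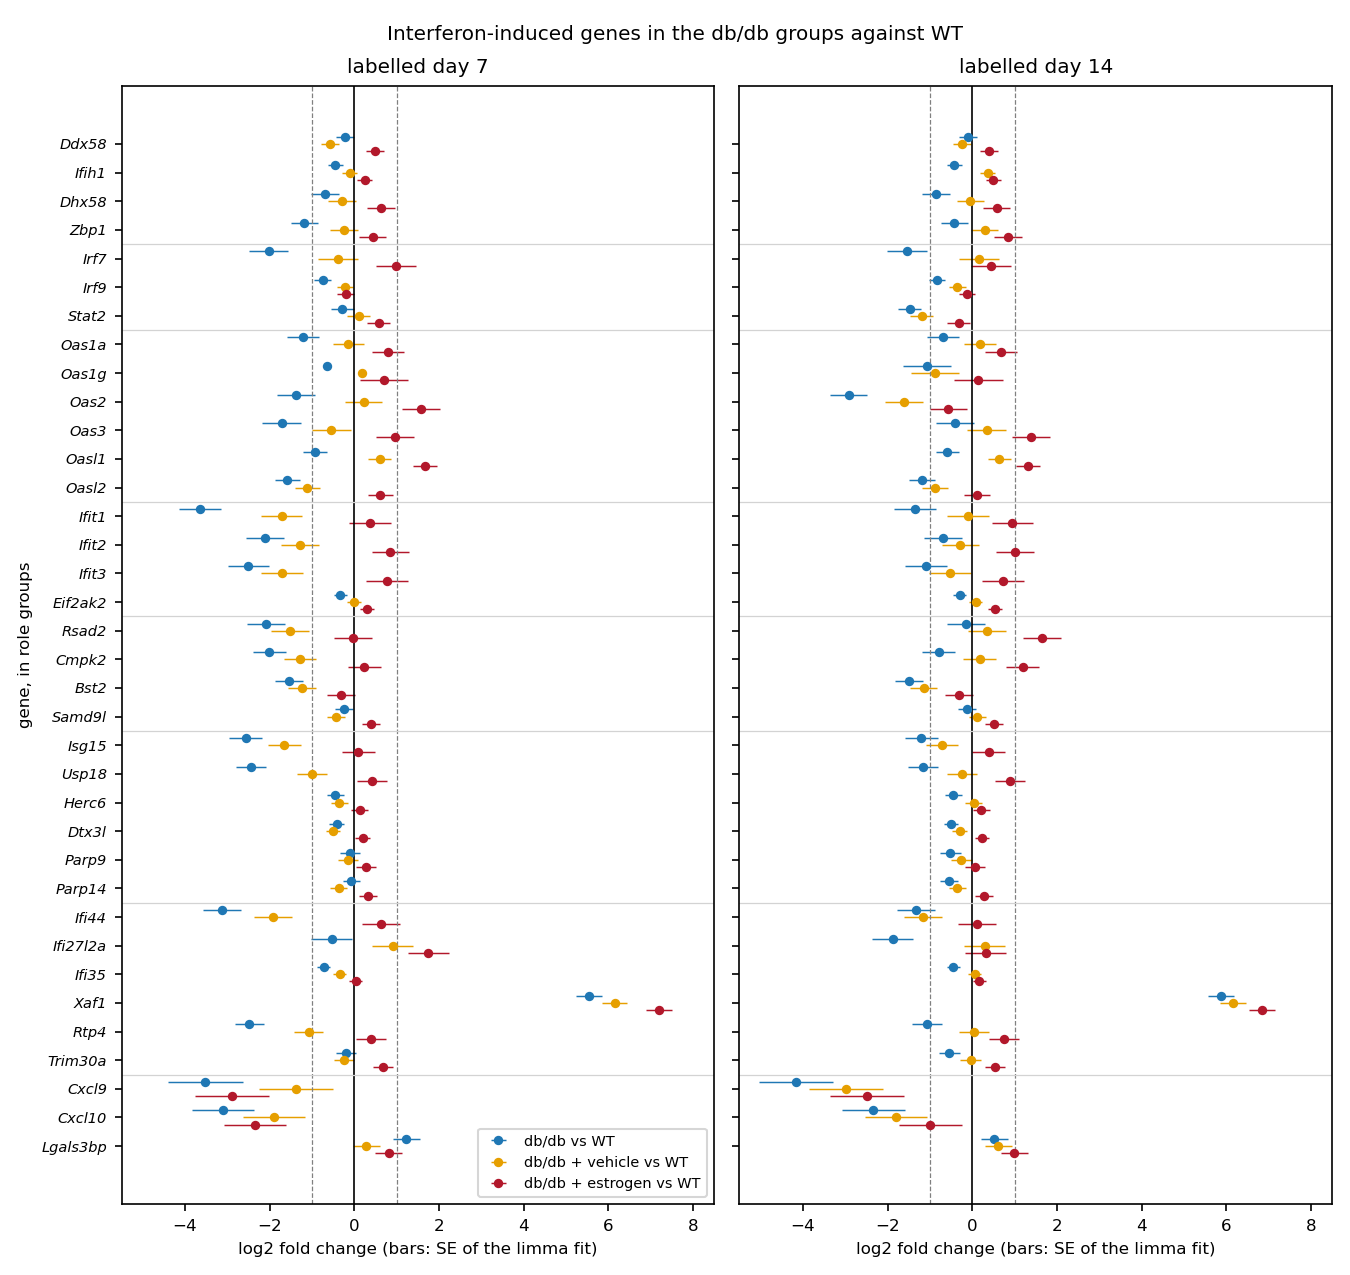
Log2 fold change of each gene against WT in untreated (db/db), vehicle and estrogen wounds, day 7 left and day 14 right, with bars of 1 SE from the limma fit (none where Oas1g was not tested) and dashed lines at 2-fold. Many genes run from blue on the left through orange to red near or right of 0, and others do not, among them Xaf1, Cxcl9, Cxcl10, Lgals3bp and, at day 7, Ddx58, Samd9l, Dtx3l and Parp14.

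Each treatment was next compared with untreated db/db. At day 7, 21 of the 36 genes were called higher with estrogen, against 5.22% of probes, and none lower, against 4.71%. The count is 20 where all 4 arrays had to be well above background, since Oas1g passed only through the estrogen arrays. After adjustment 19 held, against 4.84%. The median was 1.48, beside 0.04 over all probes, and 35 genes, Oas1g among them, were higher with no overlap between arrays, against 29.9% of probes. The medians within slides 1 and 2 were 1.60 and 1.396, with 35 of 36 genes higher on each. With vehicle, 11 genes were called higher than in db/db, against 2.52% of probes, with a median of 0.67. Within slides 1 and 2 the vehicle medians were 0.54 and 0.74, with 28 and 31 of 36 genes higher. None held after adjustment, against 0.148% of probes, and 16 of the 36 had an unadjusted p below 0.05 in limma's test, against 13.6% of probes. The estrogen and vehicle comparisons share the db/db arrays, and their values are therefore set side by side only.

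At day 14, 21 genes were called higher with estrogen than in db/db, against 2.56% of probes, and none lower, against 1.36%. Only Oasl1 held after adjustment, against 0.0991% of probes, and 35 genes were higher with no overlap, against 27.5%. The median was 1.33. Without estrogen replicate 2, 11 genes were called. The replicate on slide 3, where both db/db arrays lay, gave a median of 0.88 with all 36 genes higher. With vehicle, 6 genes were called higher than in db/db, against 5.31% of probes, with a median of 0.50 and none after adjustment, against 0.193%. The vehicle array on slide 3 gave a median of 0.72 over the db/db arrays, with 35 of 36 genes higher. An unadjusted p below 0.05 was found for 15 genes, against 17.5% of probes. The vehicle count was 2 without vehicle replicate 1 and 10 without vehicle replicate 2.

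**Figure D4:**
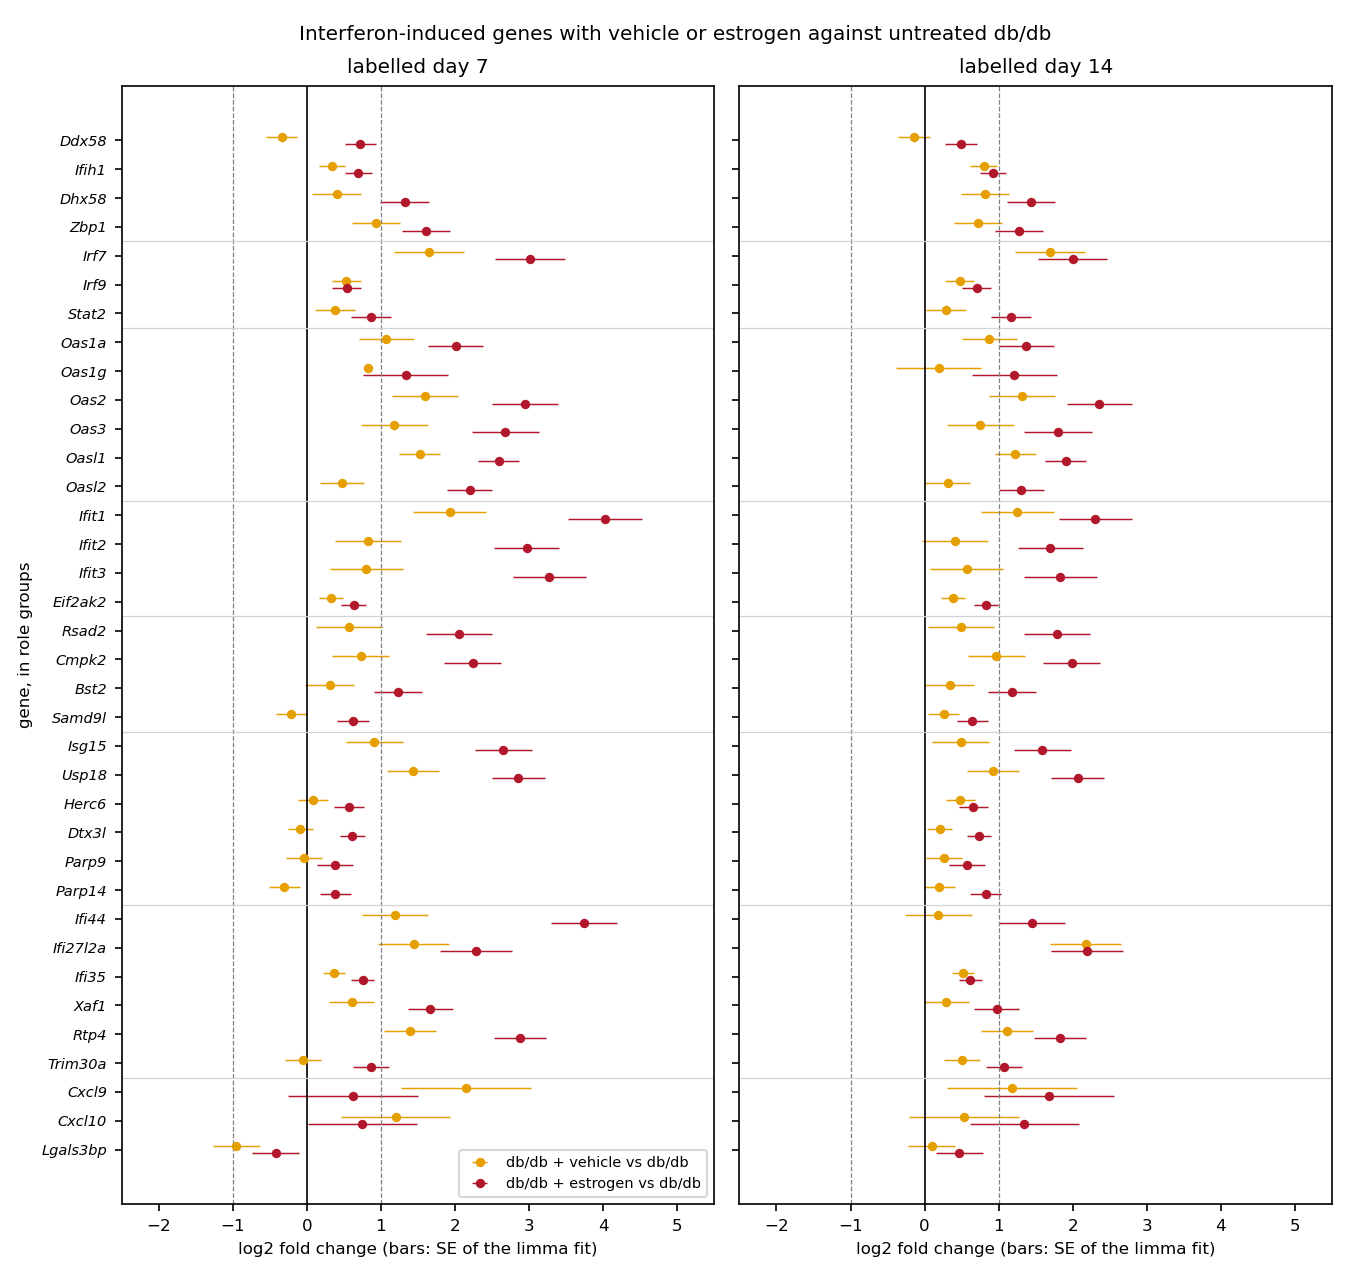
Log2 fold change of each gene with vehicle (orange) or estrogen (red) against untreated db/db, day 7 left and day 14 right, with bars of 1 SE from the limma fit (none where Oas1g was not tested) and dashed lines at 2-fold. The red points lie right of the orange ones for most genes, by more on the left panel, where the medians are 1.48 and 0.67.

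The comparison of estrogen with its vehicle asked what the hormone added to the oil. At day 7, 16 genes were called higher with estrogen, against 4.66% of probes, and none lower, against 4.32%. After adjustment 6 were left, Ddx58, Oasl2, Ifit2, Ifit3, Isg15 and Ifi44, against 2.56% of probes. The median was 0.92, and 33 genes were higher with no overlap, against 29.0% of probes. The 33 include Oas1g, which was well above background on only 1 of the 2 vehicle arrays. The medians were 1.08 on slide 1 and 0.83 on slide 2. Without estrogen replicate 1, 10 genes were called. At day 14, 9 genes were called higher, against 0.507% of probes, and none lower, against 0.476%, with a median of 0.66, and 21 were higher with no overlap, against 19.3%. No gene held after adjustment, against 0% of probes, and 19 had an unadjusted p below 0.05, against 5.38%.

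That comparison at day 14 turned on single arrays. On slide 3 the estrogen array exceeded the vehicle array by a median of 0.11 on the log2 scale, with 22 of 36 genes higher, and on slide 4 by 1.27, with 35 higher. Without estrogen replicate 2 no gene was called, likewise without vehicle replicate 2, and without estrogen replicate 1 the count was 19. Replicate 2 of the estrogen group exceeded replicate 1 for 34 of the 36 genes, by a median of 0.70 and by over 2-fold for 12 genes. In the 7 other groups the median gap between the 2 arrays, without regard to sign, ran from 0.21 to 0.42, and at most 4 genes differed by over 2-fold.

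Isg15, which is joined to other proteins as a ubiquitin-like tag, was low in db/db and near WT with estrogen. At day 7, it read 2.75 and 2.84 on the WT arrays, 0.18 and 0.28 on the db/db arrays, 1.01 and 1.27 with vehicle, and 3.19 and 2.57 with estrogen. Only WT and estrogen overlapped among the 4 groups. In db/db it was 5.91-fold below WT (log2 fold change −2.56, SE 0.39, adjusted p = 0.00385 in limma). With estrogen it was 3.34-fold above vehicle (1.74, SE 0.39, adjusted p = 0.0447). At day 14, it read 2.80 and 3.04 in WT, 1.77 and 1.67 in db/db, 2.54 and 1.87 with vehicle, and 2.64 and 3.97 with estrogen. A second Isg15 probe gave −2.58 in db/db against WT at day 7 and 1.70 between estrogen and vehicle. The latter was a call before adjustment only (adjusted p = 0.0512 in limma).

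The rest of the Isg15 group split. Usp18, which removes Isg15 and dampens the interferon receptor, was called lower in db/db than in WT at both days (−2.43 and −1.17) and higher with estrogen than in db/db (2.86 and 2.07). Herc6, the mouse ligase that attaches Isg15, and the ADP-ribosylation genes Dtx3l, Parp9 and Parp14 were called in none of the 12 comparisons. Parp14 read 1.55 and 1.07 in WT, 1.17 and 1.31 in db/db, 0.79 and 1.08 with vehicle, and 1.58 and 1.68 with estrogen at day 7. At day 14, its values were 1.52 and 1.58, 1.00 and 1.01, 1.15 and 1.26, and 1.58 and 2.09 in the same order. Its widest difference between estrogen and db/db was 0.82 on the log2 scale (SE 0.21), at day 14.

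Of the 4 sensors of foreign nucleic acid, 1 was called lower in db/db than in WT at day 7 and 0 at day 14, against 8.42% and 15.6% of probes. With estrogen 2 were called higher than in db/db at each day, against 5.22% and 2.56%. Ddx58 (RIG-I), a sensor of viral RNA, read 0.71 and 0.71 in WT, 0.66 and 0.30 in db/db, 0.21 and 0.08 with vehicle, and 1.27 and 1.14 with estrogen at day 7. By these probes it was the only sensor called between estrogen and vehicle, 2.09-fold higher (1.06, SE 0.21, adjusted p = 0.0313), and it was also the gene with the lowest vehicle value against db/db at day 14 (−0.14, SE 0.21). Its levels under that label were 1.02 and 1.04 in WT, 0.94 and 0.94 in db/db, 0.88 and 0.70 with vehicle, and 1.09 and 1.77 with estrogen, so that the WT, db/db and vehicle arrays all lay within 0.70 to 1.04. Zbp1, a sensor of Z-form nucleic acid, read 0.49 and 0.14 in WT, −0.73 and −0.99 in db/db, −0.21 and 0.35 with vehicle, and 0.80 and 0.70 with estrogen at day 7. Its values at day 14 were 0.30 and 0.68, 0.27 and −0.14, 0.96 and 0.61, and 0.87 and 1.81. It rose 3.06-fold with estrogen over db/db at day 7 and 2.42-fold at day 14. Dhx58 (LGP2) rose by 1.32 and 1.43 on the log2 scale, and Ifih1 (MDA5) had values of 0.70 and 0.93 without a call. Second probes moved some of these calls, and outside the sensors also calls of Oas1a, Oas1g, Cmpk2, Lgals3bp and Xaf1. With vehicle over db/db, second probes were called for Zbp1 at both days (1.01 and 1.03) and for Ifih1 at day 14 (1.03), unlike the first probes. The second probe of Ddx58 gave 0.71 between estrogen and vehicle at day 7, not a call. That of Zbp1, for another transcript, was called there (1.29, adjusted p = 0.0845) and was called lower in db/db than in WT at day 14 (−1.95, adjusted p = 0.00696), where the first had −0.43.

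Among the transcription factors, Irf7, which amplifies the response and is itself induced by interferon, had the largest differences between db/db and WT and between estrogen and db/db. It was called lower in db/db than in WT at both days (−2.03 and −1.55) and higher than in db/db with estrogen (3.02 and 2.00) and with vehicle (1.65 and 1.70). Estrogen exceeded vehicle by 1.37 at day 7 (SE 0.47, adjusted p = 0.138), a call before adjustment only, and the difference was 0.30 at day 14. Irf9, the DNA-binding partner of Stat2, was called in no comparison. It read 1.64 and 1.35 in WT, 0.66 and 0.84 in db/db, 1.06 and 1.5 with vehicle, and 1.29 and 1.28 with estrogen at day 7, and 1.51 and 1.54, 0.91 and 0.49, 1.28 and 1.07, and 1.44 and 1.37 at day 14. The db/db arrays of Irf9 lay below all others at both days. Stat2 was called lower in db/db at day 14 (−1.48, SE 0.27, adjusted p = 0.00656) and had −0.29 at day 7.

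Most OAS genes make the short adenylate chains that switch on the RNA-cutting enzyme RNase L, and 5 of the 6 measured genes of the family were called higher with estrogen than in db/db at day 7 with both groups well above background, against 5.22% of probes. At day 14, 5 of 6 were called, against 2.56%. Oas1a read 2.90 and 2.27 in WT, 1.17 and 1.58 in db/db, 2.00 and 2.89 with vehicle, and 3.58 and 3.19 with estrogen at day 7. Its values at day 14 were 2.82 and 2.63, 2.34 and 1.73, 3.11 and 2.71, and 3.08 and 3.73. Estrogen exceeded db/db by 4.03-fold and 2.59-fold. Oas1a and Oas1g are closely related in sequence and signal may cross between their probes. The sixth gene called at day 7 was Oas1g, which neither untreated db/db array held well above background, so that its estrogen level there was at least 1.32-fold higher, the estrogen mean being set against the lowest signal well above background on each db/db array or the probe's own where that was higher.

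Oasl1 was the only one of the 36 genes whose increase with estrogen over db/db held after adjustment at both days. It read 0.54 and 0.17 in WT, −0.86 and −0.28 in db/db, 1.05 and 0.86 with vehicle, and 2.09 and 1.95 with estrogen at day 7, and 0.93 and 0.86, 0.44 and 0.17, 1.75 and 1.33, and 1.86 and 2.57 at day 14. Both treated groups lay above WT at both days. It rose 6.03-fold with estrogen over db/db at day 7 (2.59, SE 0.28, adjusted p = 0.00124) and 3.75-fold at day 14 (1.91, SE 0.28, adjusted p = 0.0486). Oas2 had the highest value of all genes with estrogen over db/db at day 14 (2.36, SE 0.44, adjusted p = 0.118), with arrays at 1.22 and 2.36 in WT, −0.92 and −1.34 in db/db, 0.26 and 0.11 with vehicle, and 0.95 and 1.51 with estrogen. Its values at day 7 were 0.84 and −0.47, −1.29 and −1.09, 0.33 and 0.47, and 1.92 and 1.60. The estrogen arrays of Oas2 lay above WT at day 7, and at day 14 one lay within the WT range and one below it.

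Ifit1, Ifit2 and Ifit3, which bind foreign RNA and hold back its translation, were among the genes that differed most between groups at day 7. Ifit1 read −1.81 and −1.84 in WT, −5.23 and −5.72 in db/db, −3.33 and −3.76 with vehicle, and −1.16 and −1.74 with estrogen at day 7. It had the lowest value of the genes tested between db/db and WT at day 7, a 12.6-fold decrease (−3.65, SE 0.49, adjusted p = 0.0023), and the highest with estrogen over db/db at day 7, 16.3-fold (4.03, SE 0.49, adjusted p = 0.00246). The vehicle arrays lay between db/db and estrogen, 3.81-fold above db/db. At day 14, Ifit1 read −1.58 and −1.69, −3.01 and −2.97, −0.98 and −2.49, and −1.30 and −0.06, with a wide vehicle spread. Ifit3 read 0.61 and 0.53 in WT, −1.90 and −1.96 in db/db, −1.22 and −1.04 with vehicle, and 1.77 and 0.92 with estrogen at day 7. Estrogen exceeded vehicle by 5.56-fold (2.47, SE 0.49, adjusted p = 0.0309). Its values at day 14 were 0.24 and 0.15, −0.87 and −0.92, −0.03 and −0.62, and 0.00 and 1.86, so that estrogen replicate 1 lay below both WT arrays and replicate 2 far above them.

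Eif2ak2 (PKR), the kinase that stops translation on double-stranded RNA, was called in no comparison. It read −0.84 and −1.23 in WT, −1.39 and −1.34 in db/db, −1.02 and −1.05 with vehicle, and −0.68 and −0.79 with estrogen at day 7. At day 14, the values were −0.74 and −0.71, −0.96 and −1.09, −0.53 and −0.76, and −0.32 and −0.06. The estrogen arrays were the highest at both days and exceeded db/db by 0.63 and 0.83 on the log2 scale (SE 0.16).

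Bst2 (tetherin), which holds budding virus at the cell surface, read 3.14 and 2.44 in WT, 1.12 and 1.37 in db/db, 1.41 and 1.69 with vehicle, and 2.52 and 2.44 with estrogen at day 7. At day 14, it read 2.92 and 3.13, 1.66 and 1.41, 2.02 and 1.73, and 2.20 and 3.23. It was lower than WT in db/db (−1.54 and −1.49) and with vehicle (−1.24 and −1.15) at both days, all 4 calls holding after adjustment, and with estrogen it was −0.31 on both. Rsad2 (viperin), a membrane-bound enzyme that makes a chain-terminating nucleotide, read −0.68 and −1.30 in WT, −2.96 and −3.20 in db/db, −2.78 and −2.26 with vehicle, and −0.85 and −1.19 with estrogen at day 7. At day 14, it read −1.55 and −1.91, −1.81 and −1.92, −1.02 and −1.74, and −0.82 and 0.66. There db/db was not called against WT (−0.14, SE 0.45) and one db/db array lay within the WT range, and estrogen stood 3.12-fold above WT (1.64, SE 0.45, adjusted p = 0.0413). Cmpk2, the nucleotide kinase beside Rsad2, had −2.01 against WT in db/db and 2.24 with estrogen over db/db at day 7, both calls. Samd9l, an antiviral restriction factor, was called nowhere. Its arrays read 0.96 and 0.98, 0.90 and 0.57, 0.70 and 0.35, and 1.35 and 1.37 at day 7, and 0.82 and 0.82, 0.82 and 0.56, 1.06 and 0.83, and 1.06 and 1.61 at day 14, in the order WT, db/db, vehicle, estrogen.

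Ifi44, Rtp4 and Ifi27l2a are other genes that interferon induces. Ifi44 read −2.23 and −1.80 in WT, −5.22 and −5.04 in db/db, −4.02 and −3.86 with vehicle, and −1.10 and −1.68 with estrogen at day 7, with no overlap between any 2 groups. It had the largest difference between estrogen and vehicle of that label, 5.85-fold (2.55, SE 0.45, adjusted p = 0.0194), and the lowest value with vehicle against WT (−1.93, SE 0.45). At day 14, it read −2.75 and −2.23, −3.93 and −3.72, −3.49 and −3.80, and −3.21 and −1.54. Rtp4, a chaperone of receptors, read 1.86 and 1.89 in WT, −0.55 and −0.66 in db/db, 0.61 and 0.97 with vehicle, and 2.42 and 2.12 with estrogen at day 7, and 1.94 and 2.06, 1.1 and 0.76, 2.49 and 1.59, and 2.24 and 3.27 at day 14. Estrogen exceeded db/db by 7.33-fold and 3.54-fold.

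Ifi27l2a had nearly the same call before adjustment with the oil alone as with the hormone at day 14. It read 4.33 and 4.79 in WT, 3.09 and 2.29 in db/db, 4.95 and 4.78 with vehicle, and 4.60 and 5.17 with estrogen. The increase over db/db was 4.51-fold with vehicle (2.17, SE 0.48, adjusted p = 0.0981) and 4.58-fold with estrogen (2.20, SE 0.48, adjusted p = 0.173), and estrogen differed from vehicle by 0.02 (SE 0.48), the lowest value of the 36 genes in that comparison. At day 7, it read 4.001 and 3.51, 2.46 and 3.98, 5.02 and 4.31, and 5.29 and 5.71. Ifi35, which binds the signalling protein Nmi, was called nowhere. Trim30a, a regulator of inflammatory signalling, was called higher with estrogen than in db/db at day 14 (1.08), its only call.

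Xaf1, an inhibitor of the anti-apoptotic protein Xiap, was called higher than WT in all 3 db/db groups at both days. Its probe read −5.19 and −5.56 in WT, −0.02 and 0.35 in db/db, 0.72 and 0.83 with vehicle, and 1.97 and 1.70 with estrogen at day 7. At day 14, it read −5.26 and −5.09, 0.91 and 0.49, 1.21 and 0.77, and 1.21 and 2.13. The db/db arrays thus stood 46.5-fold and 58.6-fold above WT. A second probe of the same accession went the other way. It read −0.07 and −0.02 in WT, −2.77 on the db/db array that had a value, −2.21 and −1.77 with vehicle, and −0.33 and −0.73 with estrogen at day 7. The 2 probes gave like values among the db/db groups, with estrogen over vehicle at 1.06 and 1.46 at day 7, so the disagreement was between WT and db/db. WT and db/db differ in strain, and whether the strains differ under the probes was not tested. The direction of Xaf1 against WT therefore has no settled value, and 1 of the 2 calls higher than WT in db/db at day 7 and the single such call at day 14 are Xaf1.

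The secreted chemokines Cxcl9 and Cxcl10, which attract T cells through Cxcr3, were lower than WT in untreated db/db and stayed so with estrogen at day 7. The calls with estrogen did not hold with WT replicate 1 left out, although both estrogen arrays lay below both WT arrays for each gene. Cxcl9 read 0.96 and 0.14 in WT, −2.65 and −3.28 in db/db, −2.52 and 0.88 with vehicle, and −2.62 and −2.05 with estrogen at day 7. The 2 vehicle arrays lay far apart, one just above the db/db arrays and one within the WT range, and estrogen minus vehicle (−1.52, SE 0.88) was the lowest value of the 36 genes and vehicle over db/db (2.15, SE 0.88) the highest. At day 14, Cxcl9 read −0.02 and 0.48, −3.72 and −4.14, −3.19 and −2.31, and −1.79 and −2.72, with every db/db, vehicle and estrogen array below WT. Estrogen stood 7.40-fold and 5.61-fold below WT on the 2 days (adjusted p = 0.107 and 0.0952). A second Cxcl9 probe gave −2.81 and −2.62. Cxcl10 with estrogen was 5.10-fold below WT at day 7 (−2.35, SE 0.74, adjusted p = 0.119) and 1.98-fold at day 14, not a call. Its vehicle arrays at day 7 read −1.71 and 1.12, parted like those of Cxcl9.

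Lgals3bp, a secreted glycoprotein that binds galectins, did not move with the others. It read 3.92 and 3.47 in WT, 4.59 and 5.25 in db/db, 3.86 and 4.08 with vehicle, and 4.39 and 4.62 with estrogen at day 7, and was called higher in db/db than in WT (1.23, SE 0.32, adjusted p = 0.0327). It had the lowest value with estrogen over db/db at both days, −0.42 and 0.47 (SE 0.32), and with vehicle over db/db at day 7 (−0.95, SE 0.32). At day 14, it read 3.97 and 3.28, 4.13 and 4.17, 4.49 and 4.003, and 4.34 and 4.91.

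**Figure D5:**
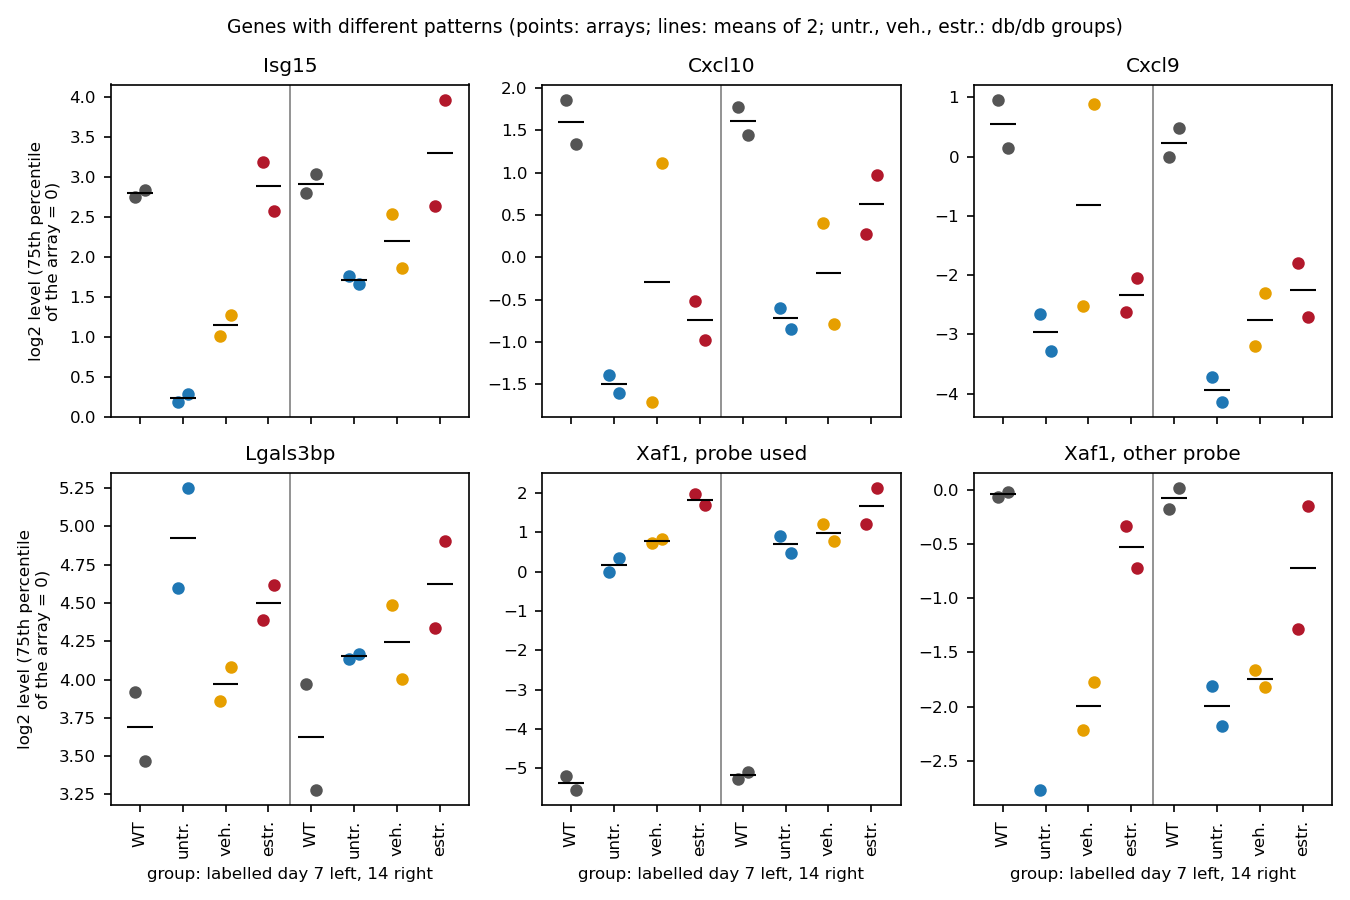
Log2 level on each array (points) and mean of 2 (lines) for Isg15, Cxcl10, Cxcl9, Lgals3bp and both Xaf1 probes, with day 7 left and day 14 right of the grey line. Isg15 with estrogen is level with WT while Cxcl9 is below it, and the 2 Xaf1 probes place WT at opposite ends (the second has no value on 1 db/db array).

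The 2 days were compared by the difference of their fold changes in the same fit. No gene reached an adjusted p of 0.05 for db/db against WT, for estrogen or vehicle against db/db, or for estrogen against vehicle, and the numbers with an unadjusted p below 0.05 were 9, 2, 1 and 0 of 36. The share of all probes at that level was 13.7%, 10.01%, 4.99% and 11.2%. Of the 9 genes, 7 were nearer to WT in db/db at day 14 than at day 7, the smallest p being that of Ifit1, nearer by 2.29 on the log2 scale (SE 0.70, adjusted p = 0.169). The other 2 were further from WT, Stat2 by −1.19 (adjusted p = 0.193) and Oas2 by −1.55 (adjusted p = 0.309). Each labelled day was scanned on its own day, so the 2 cannot be told apart.

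Other genes of the pathway were read from lists. Of the 12 interferon ligands, 11 had a probe, with a summed linear level between 0.239 and 0.707 times the 75th percentile of the array, and the highest mean signal was that of the Ifnl3 probe. They were well above background on all 16 arrays for 6 of the 11, on 1 array for Ifnb1 and on none for Ifna4. The interferon alpha genes are near-identical, so their probes cannot be told apart with certainty. With estrogen against db/db, 0 of the ligands were called on either day. With vehicle against db/db, 0 were called at day 7. At day 14, 1 was called higher with vehicle, against 5.31% of probes, and it did not hold after adjustment. Ifnk had the highest value of the ligands there, at least 1.85-fold, and passed only through the vehicle arrays. In db/db against WT, 8 ligands were tested at each day. At day 7, 1 was called lower, against 8.42% of probes, Ifng, type II interferon (−2.55, adjusted p = 0.0848). At day 14, 3 were called lower, against 15.6% of probes. The calls of Ifng and Ifnk held after adjustment, against 13.6% of probes, while that of Ifna11 (−1.80, adjusted p = 0.11) did not. Under that label Ifng was well above background on 1 of the 2 db/db arrays and Ifnk on neither, so that WT held at least 2.18-fold more Ifnk. Ifng had 0.10 with estrogen over db/db at day 7. Of the 11 receptor and signalling genes, 0 were called higher with estrogen than in db/db at day 7, against 5.22% of probes, and 1 lower, against 4.71%. The latter was Jak2, a kinase of the type II receptor (−1.02), and 0 were called at day 14. Ifnar1 had −0.56 and −0.01 in the same comparison.

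Of 15 genes listed under the induction of interferon, 1 was called lower with estrogen than in db/db at day 7, against 4.71% of probes. It was the kinase Ikbke (−1.08). At day 14, 1 was called higher, against 2.56% of probes. That gene was Trex1 (1.13, adjusted p = 0.012 in limma), which degrades DNA in the cytosol and so limits induction. Of 5 negative regulators, Socs3, which shuts off cytokine receptors, was called lower with estrogen at day 7, against db/db (−2.61, SE 0.25, adjusted p = 0.00076) and against vehicle (−2.03), and none was called at day 14. The shares of all probes called lower in these 2 comparisons at day 7 were 4.71% and 4.32%. Of 35 further interferon-induced genes, 31 had a probe. With estrogen over db/db, 6 of them were called higher and 2 lower at day 7, and 5 higher and 1 lower at day 14, with medians of 0.45 and 0.53. The shares of all probes were 5.22% higher and 4.71% lower at day 7, and 2.56% and 1.36% at day 14. After adjustment 6 of these calls were left at day 7 and 0 at day 14. Phf11b and Phf11d rose by 2.10 and 1.82 at day 7, and Ifitm1, a membrane protein that blocks viral entry, fell by 4.27.

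Markers of other cells were read on the same arrays. The tissue was skin: the 6 keratinocyte and 6 fibroblast markers were all well above background on all 16 arrays. The largest move was that of neutrophils. Their 10 markers summed to 409 and 451 times the 75th percentile in db/db at day 7, 428 and 406 with vehicle and 7.04 and 26.0 with estrogen, and in WT to 306 and 298, sums that mostly follow S100a9, the probe with the highest mean signal, and S100a8. All 10 neutrophil markers were called lower with estrogen than in db/db, against 4.71% of probes, with a median of −5.87. Against vehicle 6 of 10 were called lower, beside 4.32% of probes. One of the 10, Ngp, passed against db/db only through the db/db arrays, so its fall, the largest of the list, is not exact. With vehicle 5 of 10 were called lower than in db/db at day 7, with a median of −3.01 (2 after adjustment), and 4 of 10 at day 14, with a median of −1.51 (0 after adjustment). The shares of all probes after adjustment were 0.148% and 0.193%, and the shares called lower before it are not given here. In db/db against WT, 8 of 10 were called higher at day 7, against 5.67% of probes. At day 14, the sums ran from 258 to 433 over the arrays of all groups, lowest in db/db. Yet 5 of 10 markers were called higher in db/db than in WT, against 2.35% of probes, with a median of 1.79. After adjustment 2 of these held. With estrogen against db/db, 3 of 10 were called lower at day 14, against 1.36% of probes, and 0 held after adjustment. In the same comparison 21 interferon-induced genes were called higher at each day, against 5.22% and 2.56% of probes. The day 7 count includes Oas1g, which passed only through the estrogen arrays. The part of neutrophils in their levels was not tested.

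The 8 plasmacytoid dendritic cell markers, all well above background on every array and with the highest mean signal at the Siglech probe, summed to 137 and 169 in db/db and 193 and 159 with estrogen at day 7, and 131 and 124 and 133 and 176 at day 14. The sum of 176, on estrogen replicate 2, moved with Cox6a2, a gene that muscle also expresses, which read 2.57 and 6.46 on the 2 estrogen arrays of day 14. Siglech itself read 5.96 and 6.44 in db/db and 6.41 and 6.18 with estrogen at day 7, and 4.98 and 4.94 and 5.45 and 5.41 at day 14, with no call. In WT it read 6.82 and 6.38 at day 7 and 5.91 and 6.88 at day 14, and it was called lower in db/db than in WT at day 14 (−1.44, SE 0.29, adjusted p = 0.00962), the only one of the 8 markers called there, while at day 7 it had −0.40 and Klk1 was the one called lower. Of the 8 markers, 1, Klk1, was called higher with estrogen than in db/db at day 7, against 5.22% of probes, and 0 at day 14, against 2.56%. Klk1 is a tissue kallikrein, and the study lists kallikrein 1-related genes among its estrogen-specific increases. With vehicle over db/db, 2 of the 8 were called higher at day 7, against 2.52% of probes, and none held after adjustment. The 8 macrophage and monocyte markers with a probe, with the highest mean signal at Csf1r, summed to 101.6 and 121 in db/db and 93.2 and 101.9 with estrogen at day 7, with 1 called higher and 3 lower. The 6 conventional dendritic cell markers, with the highest mean signal at Itgax and Xcr1 never well above background, summed to 1.30 and 1.41 in db/db and 3.12 and 3.51 with estrogen, with 2 called higher. The 7 T cell and 6 NK cell markers with a probe had 1 called higher each. Over all probes, 5.22% were called higher and 4.71% lower with estrogen than in db/db at day 7. The NK cell call was Klrk1 (log2 fold change 1.57), which was well above background on only 5 of the arrays. Klrk1 passed against db/db only through the estrogen arrays, so the size of its rise is not exact. In db/db against WT at day 7, 4 T cell markers, 3 NK cell markers and 3 conventional dendritic cell markers were called lower, against 8.42% of probes, and 1, 0 and 3 of these held after adjustment. Of the keratinocyte markers, 2 were called higher with estrogen than in db/db at day 7, against 5.22% of probes, and 1 at day 14, against 2.56%. The endothelial, adipocyte and fibroblast lists had 0 called with estrogen over db/db on either day. Skeletal muscle markers summed to between 45.0 and 503 over the day 14 arrays, the 2 ends being estrogen replicate 1 and replicate 2. On the same 2 arrays the keratinocyte markers, with the highest mean signal at Krt5, summed to 641 and 303, and Krt10, a keratin of the upper epidermis, read 6.52 and 3.13. WT replicate 2 of day 14 had a sum of 364 and a Krt10 level of 3.56. The part of these cells in the interferon-induced genes was not tested.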

How the data were processed

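Wounds were profiled on 16 one-colour mouse arrays, 2 for each of 8 groups, with groups, labelled days and replicate numbers taken from the sample records. The authors deposited an intensity for every spot, made with Agilent Feature Extraction 11.0.1.1, from which background and spatial trend had been taken off and which was not scaled between arrays. The scanner files also mark spots as well above background. In the series matrix the authors deposited a ratio, each probe's intensity over the 75th percentile of its array, used here as an alternative. Spots marked as outliers were left out, spots of a probe were averaged, and log2 values were taken relative to the 75th percentile of the array. RefSeq accessions named 27427 of 39429 probes.

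limma 3.58.1 in R 4.3.3 was fitted with 1 coefficient for each of 8 groups, leaving 8 residual degrees of freedom. Tests were run for a probe where 1 or both groups of the comparison had it well above background on each of their 2 arrays, and adjusted p is by Benjamini-Hochberg over all probes tested in that comparison. The steps were tested on simulated data. The genes and lists were chosen with earlier results of these data known, so their pattern is not independent support of any finding. By rule, values on each array were given for the 2 genes of each role group with the highest mean level (1 for groups of 3) and for the extremes of each comparison, and at most 3 genes of another list were named, those with the smallest p for estrogen against db/db. Irf7, Cxcl10, Ifnb1, Ifna4 and the other genes named in passing were chosen after their values were seen. Marker genes are named where their probe had the highest mean signal of a list or was never well above background. The markers S100a8, Ngp, Cox6a2, Klk1, Klrk1 and Krt10 do not meet that rule and belong to those named in passing. Alternatives were normexp (offset 50), quantile normalization, no filter or a stricter one on dim probes, the series matrix, a fit of 4 arrays, slide as fixed or random block (statmod 1.5.0), a replicate block, the mean over a gene's probes, the adjusted threshold and leaving out each array. Of 40 fold changes of db/db against WT printed in the study, 0 matched the arrays of the same labelled day within 1% and 40 matched those of the other, and which labels are wrong is not known.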

Additional observations from a re-analysis of the deposited data

How the results depend on the processing

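The median log2 fold change of the genes kept its sign under all alternatives in 11 of the 12 comparisons, and vehicle against WT at day 14, near 0, ran from −0.30 to 0.07. Relative to the median of all probes that comparison was 0.02, and −0.09 after quantile normalization, which moved the median of all probes by up to 0.19 (db/db against WT, day 14). Normexp moved it by up to −0.145. Of 2100 refits of single called genes 0 reversed and 173 lost the call, 112 of them with an array left out. With 2 arrays a group, each count rests on few values, and a lone array was assumed to vary like the other groups.

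With the adjusted threshold, the calls at day 7 were 2 for estrogen and 4 for vehicle against WT, 0 for vehicle against db/db and 6 for estrogen against vehicle, and at day 14 they were 9 for db/db, 3 for estrogen and 4 for vehicle against WT, 1 for estrogen and 0 for vehicle against db/db, and 0 for estrogen against vehicle. Fewer calls follow from the stricter threshold itself. With slide as a fixed block, db/db against WT at day 14 had 5 calls and a median of −0.44, and vehicle against WT had 4. A fit of 4 arrays left 2 calls between estrogen and vehicle at day 14. The cause was not tested for these fits.

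With an array left out, the calls at day 7 ran from 18 to 21 for db/db, 5 to 7 for estrogen and 7 to 12 for vehicle against WT, 20 to 21 for estrogen and 8 to 11 for vehicle against db/db, and 10 to 19 for estrogen against vehicle. At day 14 they ran from 9 to 13, 1 to 17, 3 to 9, 11 to 24, 2 to 10 and 0 to 19 in the same order. The medians at day 7 ran from −1.25 to −0.79, 0.33 to 0.59, −0.57 to −0.29, 1.396 to 1.62, 0.50 to 0.74 and 0.86 to 1.095, and at day 14 from −0.80 to −0.67, 0.042 to 0.77, −0.30 to 0.07, 0.88 to 1.70, 0.30 to 0.72 and 0.33 to 1.09.

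At day 7 the replicate number is also the slide. Beyond that, replicate numbers showed no consistent pairing, as deviations of same-numbered arrays correlated at −0.45 to 0.39 over 25909 probes. The replicate block gave 20, 6, 12, 21, 11 and 16 calls at day 7 and 14, 7, 6, 22, 6 and 8 at day 14 in that order.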
